A study of Mus musculus with 6 samples.

Results

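The 10 genes described here, Trim28, Setdb1, Atf7ip, Ehmt1, Ehmt2, Suv39h1, Suv39h2, Atrx, Daxx and Hells, encode enzymes and partners that build heterochromatin by methylating lysine 9 of histone H3 (H3K9), or that work at the same chromatin. They were picked by their function, by a rule that uses no measured value but was written with earlier results of these data known, and all 10 were present among the 54352 genes of the expression table. Messenger RNA levels were compared between SIRT1 KO mESCs, mouse embryonic stem cells that lack the deacetylase SIRT1, and WT mESCs, with 3 libraries per genotype. Both groups carried the labels male and 129Sv/J and were cultured in ESGRO, a medium made for mouse stem cells. By the study's methods, the cells it calls WT and SIRT1 KO mESCs were of R1, a mouse embryonic stem cell line in which Sirt1 had been disrupted by gene targeting in earlier work, and the number of clones used for RNA is not given. The deletion and any other difference between the lines therefore cannot be told apart, and p-values measure only the spread between these libraries. The sources differ on whether RNA was depleted of ribosomal RNA or selected by poly(A).

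H3K9 methylation marks silent chromatin. SUV39H1 and SUV39H2 place the trimethyl mark at the repeats around centromeres, where HP1 proteins bind it. EHMT1 (GLP) and EHMT2 (G9a) act as a heterodimer that places the mono- and dimethyl marks in euchromatin. SETDB1 places the trimethyl mark at endogenous retroviruses in embryonic stem cells, brought there by TRIM28 (KAP1), which is in turn recruited by KRAB zinc finger proteins, and ATF7IP stabilises SETDB1. ATRX and DAXX deposit the histone variant H3.3 at repeats and telomeres, and HELLS (LSH) is a remodeller needed for DNA methylation at repeats. SIRT1 is known from other work to deacetylate SUV39H1, a step on the protein that RNA levels do not show.

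The targeted gene checked the labels. Sirt1 had log2 normalized values of 13.71, 13.72 and 13.79 in SIRT1 KO mESCs, against 15.52, 15.54 and 15.49 in WT mESCs (log2 fold change -1.78, SE 0.0487, adjusted p = 1.16e-07 by limma). RNA of the gene was thus lower but not absent, and which exons it came from cannot be read from values per gene. Of 8 markers of embryonic stem cells, 7 did not pass the test and Klf4 was lower (log2 fold change -0.34, adjusted p = 0.00441 by limma), a call lost with median centring and when SIRT1 KO replicate 2 or 3 or WT replicate 3 was left out (adjusted p up to 0.0313). Their summed level was 21.00 to 21.05 on the log2 scale in SIRT1 KO libraries and 20.88 to 21.04 in WT libraries. The summed level of 4 neural progenitor markers was 14.67 to 14.71 in SIRT1 KO libraries and 13.96 to 14.15 in WT libraries. This sum was mostly Nes, which was higher (14.52 in SIRT1 KO and 13.65 in WT mESCs). Sox1 was lower, Pax6 was not called (log2 fold change 0.01) and Olig2 had low values (3.41 and 3.45). The median log2 fold change of the 4 was -0.02. The summed level of 5 primitive endoderm markers was 10.88 to 11.11 in SIRT1 KO libraries and 10.37 to 10.61 in WT libraries. Sox7, the highest of them (10.43 in SIRT1 KO and 9.47 in WT mESCs), was higher, and Gata6 and Dab2 were lower (Dab2 lost its call without SIRT1 KO replicate 1, adjusted p = 0.0101 by limma). The median log2 fold change of the 5 was -0.14. Trophoblast, early mesoderm and fibroblast marker sums overlapped between the genotypes, with called genes in both directions for trophoblast (Eomes 0.48, Tfap2c -0.59) and for fibroblast (Pdgfrb 0.38, Thy1 -0.56). The call of Pdgfrb was lost when SIRT1 KO replicate 1 or 3 or WT replicate 1 or 3 was left out (adjusted p up to 0.0293 by limma). The part of these markers in the results was not tested. WT replicate 2 lay farthest from its genotype (root mean square deviation 0.141 log2 over tested genes, against 0.0662 to 0.123 for the other 5 libraries).

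Suv39h1, one of the pair of enzymes for trimethylation at pericentromeric repeats, was the only one of the 10 genes that passed the test, and its RNA rose 2.17-fold in SIRT1 KO mESCs. No gene of the 10 was called lower, and the fold changes of the other 9 lay between -0.13 and 0.12 on the log2 scale. A gene was called higher or lower at a Benjamini-Hochberg adjusted p under 0.01 from limma over 26571 tested genes. By that rule 1 of 10 genes was called, against 16.6% of all tested genes in either direction, with 8.47% higher and 8.12% lower. At a looser threshold of 0.05 in this same fit the count of the 10 was still 1, whereas 28.5% of all tested genes passed. All values are log2 normalized values, which do not take gene length into account. In bulk RNA, fewer cells of a type and less RNA per cell cannot be told apart.

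Suv39h1 had values of 13.96, 14.05 and 14.07 in SIRT1 KO mESCs, against 12.87, 12.90 and 12.96 in WT mESCs. The lowest SIRT1 KO library lay far above the highest WT library, and the spread within each genotype was small (SD 0.060 in SIRT1 KO mESCs and 0.045 in WT mESCs, n = 3 each). The log2 fold change was 1.12 (SE 0.056, 95% interval 0.99 to 1.24, adjusted p = 2.91e-06 by limma), which corresponds to 2.17-fold on the linear scale (interval 1.98 to 2.36). By fold change, Suv39h1 ranked 105 among the 2251 genes called higher. With 3 libraries per genotype an exact two-sided permutation test cannot go below p = 0.10, and Suv39h1 reached that value. The call held under every alternative run, with adjusted p from limma between 3.21e-07 and 9.24e-05.

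**Figure D1:**
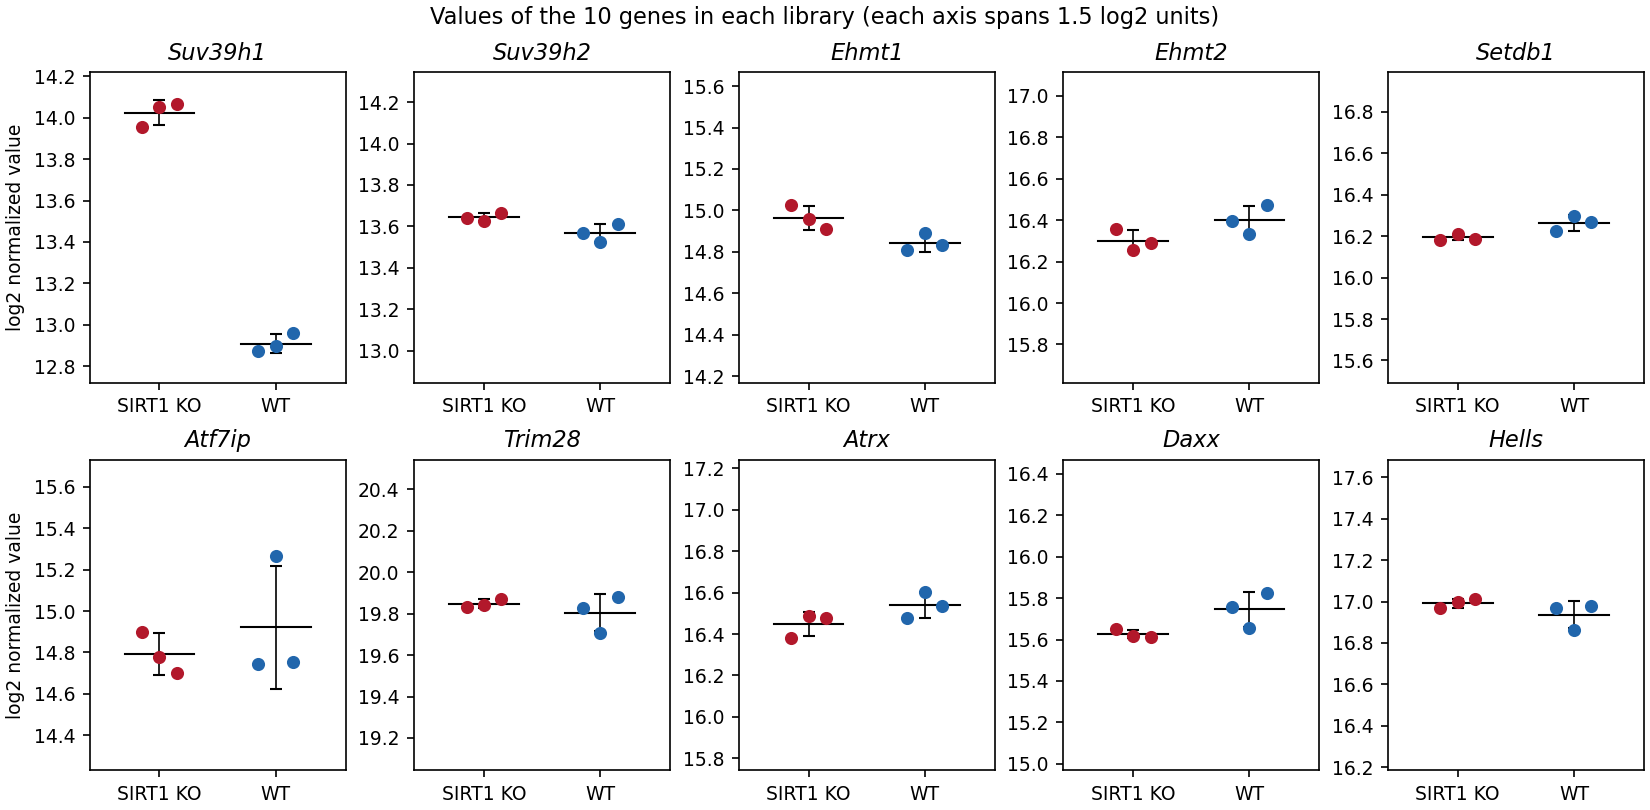
Log2 normalized value of each of the 10 genes in each library, SIRT1 KO left (red) and WT right (blue), with the mean and SD of 3 libraries; every axis spans the same range of log2 units. Suv39h1 is the one gene whose genotypes lie far apart, at 13.96 to 14.07 in SIRT1 KO libraries and 12.87 to 12.96 in WT libraries, and Atf7ip has a single WT library at 15.26.

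Suv39h1 lies on the minus strand at chrX:8061171-8074760 in GRCm38 (GENCODE vM21). Of its 5270 exonic bases, 767 (14.6%) are shared with Gm14820, a gene annotated on the opposite strand. Gm14820 also rose, with 12.20 ± 0.093 in SIRT1 KO mESCs and 11.43 ± 0.099 in WT mESCs (SD, n = 3 each; log2 fold change 0.77, SE 0.0763, adjusted p = 0.000123 by limma). No source used here gives the strand setting of the read counting, and without strand the reads of the shared bases cannot be told apart. On the linear scale Suv39h1 had 16677 ± 686 normalized units in SIRT1 KO mESCs and 7696 ± 241 in WT mESCs, a difference of 8981. Gm14820 had 4700 ± 298 normalized units in SIRT1 KO mESCs and 2765 ± 192 in WT mESCs, a difference of 1935 (SD, n = 3 each). These values do not give how many reads of the shared bases were counted for Suv39h1, and the part of Gm14820 in its rise was not tested.

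RefSeq gives more than 1 start of Suv39h1, the one gene of the 10 whose RNA was called changed. The 250 bases before the outermost of these are shown. They are the reference sequence from RefSeq on GRCm38.p6, read 5′ to 3′ on the gene's strand (chrX:8074761-8075010, minus strand), and no annotated exon lies in the window. Capitals mark a GC box (GGGCGG) and the reverse complement (ATTGG) of a CCAAT box.
Suv39h1: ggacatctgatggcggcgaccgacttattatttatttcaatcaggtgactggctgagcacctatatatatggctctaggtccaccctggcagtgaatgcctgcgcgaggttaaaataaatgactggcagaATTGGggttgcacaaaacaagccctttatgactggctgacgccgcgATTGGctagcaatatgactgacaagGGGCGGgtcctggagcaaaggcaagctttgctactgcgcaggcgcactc
The GC box ends 44 bases before the start, and the reversed CCAAT boxes end 116 and 70 bases before it. The window holds 51.6% G and C and 11 CpG dinucleotides, against medians of 52.4% and 6 over 32851 such windows of all genes. The window before the inner start (chrX:8074362-8074611) holds exonic bases of Suv39h1 and Gm14820, 67.2% G and C, 25 CpG dinucleotides, a GC box and no CCAAT box. Which start the RNA came from cannot be read from values per gene. Shares of all windows are by window, whereas counts of the 10 genes are by gene over their 14 windows. The content of G and C in these 14 windows ran from 48.4% (Atrx) to 84.0% (Ehmt2). A GC box on either strand stood in 32.7% of all windows and in a window of 9 of the 10 genes, all but Atrx. A CCAAT box stood in 33.8% of all windows and in a window of 5 of the 10 genes. The E box bound by Myc and Max (CACGTG) stood in 6.02% of all windows and in that of Ehmt2 alone. No window of the 10 genes held the letters TATAAA (12.4% of all windows), the NRF1 site (0.782%) or the E2F letters TTTCGCGC or TTTGGCGC (0.654%). A match describes the letters of the reference strain, C57BL/6J, and not a bound site in these 129Sv/J cells.

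The genes beside Suv39h1 also differed between the genotypes. Among the 10 protein-coding genes closest to it that were tested, 5 per side, 4 were higher in SIRT1 KO mESCs and none was lower, with a median log2 fold change of 0.27. These were Hdac6, a cytoplasmic deacetylase (0.67, adjusted p = 1.80e-05 by limma), Glod5 (0.61, adjusted p = 0.00317), Gata1, a factor of blood cell development (0.41, adjusted p = 0.00744), and Rbm3, an RNA-binding protein induced by cold (0.35, adjusted p = 0.0034). The same median for the other 9 genes ran from -0.10 around Atf7ip to 0.17 around Atrx. In windows chosen after the values had been seen, 7 of 10 protein-coding genes within 200 kb on the lower-coordinate side were higher, and none lower, with a median of 0.62. Pim2 (0.79), Slc35a2 (1.06), Pqbp1 (0.81) and Timm17b (0.64) were the other 4. On the higher-coordinate side 1 of 8 genes was higher (Rbm3) and 2 were lower, Porcn (-0.96) and Slc38a5 (-1.28), with a median of -0.04. Over chromosome X without Suv39h1, 12.6% of 585 protein-coding genes were higher and 13.5% lower, beside 12.4% higher and 11.3% lower among all tested protein-coding genes other than Suv39h1. Among tested protein-coding genes within 500 kb of Suv39h1, it (1.12, SE 0.056) and Slc35a2 (1.06, SE 0.063) had the largest rises. Their SEs do not set the 2 apart. Most genes on one side of Suv39h1 rose with it, and its part in or apart from that stretch was not tested.

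**Figure D2:**
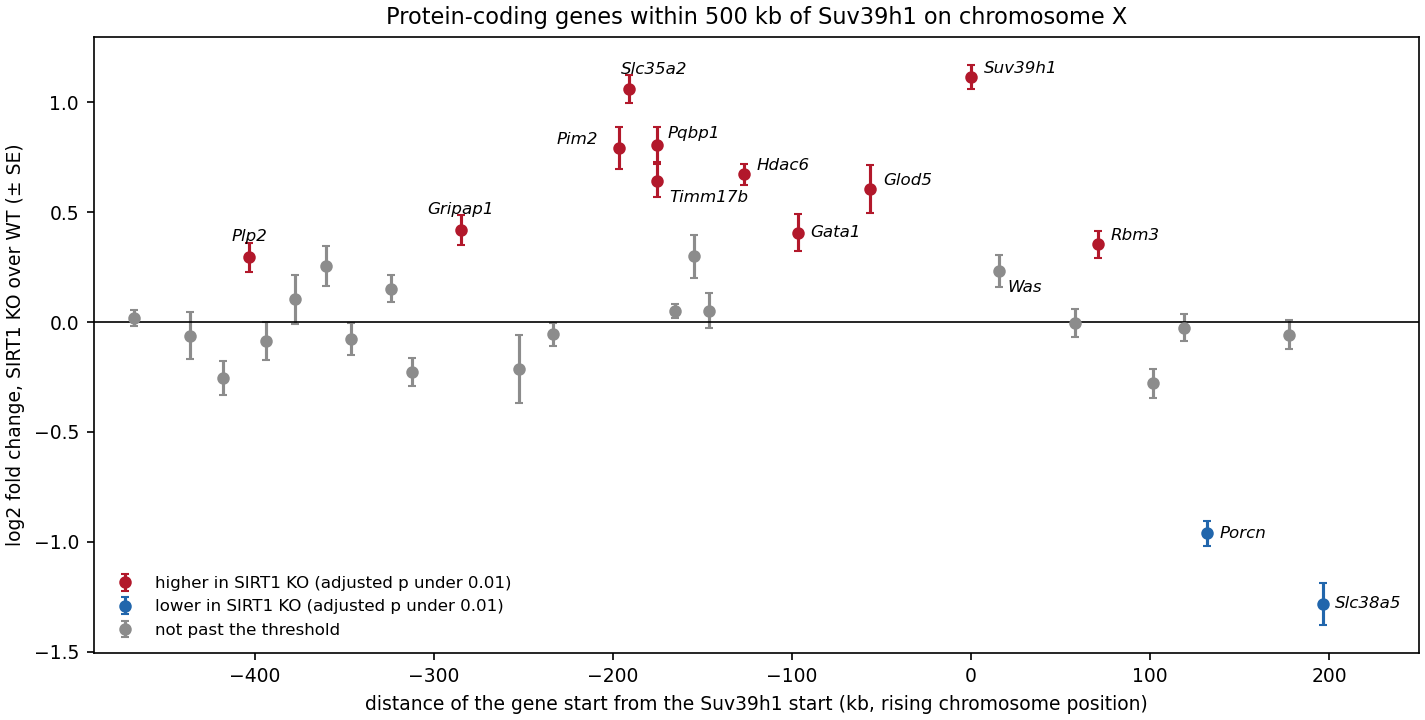
Log2 fold change (SIRT1 KO over WT, bars show the SE from limma) of tested protein-coding genes within 500 kb of Suv39h1, against the distance of each gene start from that of Suv39h1 in kb; red marks genes called higher, blue lower and grey neither. Suv39h1 (1.12) and Slc35a2 (1.06) lie close together at the top. Pqbp1 (0.81), Pim2 (0.79) and Hdac6 (0.67) follow on the same side of Suv39h1 as Slc35a2, and Porcn (-0.96) and Slc38a5 (-1.28) lie below 0 on the other.

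Suv39h2, the paralog that shares the work of Suv39h1 (chr2:3455815-3475031, minus strand), did not pass the test. It had 13.64, 13.63 and 13.67 in SIRT1 KO mESCs, against 13.57, 13.52 and 13.61 in WT mESCs. The SIRT1 KO libraries all lay just above the WT libraries (log2 fold change 0.08, SE 0.0506, adjusted p = 0.305 by limma). Suv39h2 shares 357 exonic bases (8.10%) with Dclre1c, a gene of DNA repair that was not called (log2 fold change -0.13). Within each library the log2 value of Suv39h1 minus that of Suv39h2 averaged 0.38 in SIRT1 KO mESCs and -0.66 in WT mESCs. The genotypes did not overlap, and the difference of 1.04 had the smallest exact permutation p this design allows (0.10, adjusted over 5 pairs 0.167). Divided by exonic length, the ratio of Suv39h1 to Suv39h2 was 1.09 ± 0.043 in SIRT1 KO mESCs and 0.530 ± 0.013 in WT mESCs (SD, n = 3 each). Suv39h2 was thus the more abundant of the pair in WT mESCs, and Suv39h1 stood slightly above it, without overlap between libraries, in SIRT1 KO mESCs. That second order is not set by these values. The ratio depends on the exonic lengths used and on reads of the shared bases (14.6% of Suv39h1 and 8.10% of Suv39h2).

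Neither gene of the GLP and G9a heterodimer passed the test. Ehmt1 (chr2:24789928-24919614, minus strand) had 15.03, 14.96 and 14.91 in SIRT1 KO mESCs, against 14.81, 14.89 and 14.83 in WT mESCs. Its SIRT1 KO libraries lay above its WT libraries without overlap, by 0.12 on the log2 scale (adjusted p = 0.122 by limma, SE 0.0525). Ehmt2 (chr17:34898469-34914052, plus strand) had 16.36, 16.26 and 16.29 in SIRT1 KO mESCs, against 16.40, 16.33 and 16.47 in WT mESCs. These overlapped, and the log2 fold change was -0.10 (SE 0.055, adjusted p = 0.220 by limma). As the values of the pair leaned in opposite directions, Ehmt1 minus Ehmt2 was -1.34 in SIRT1 KO mESCs and -1.56 in WT mESCs, without overlap (difference 0.22, exact permutation p = 0.10, adjusted over 5 pairs 0.167). Ehmt2 was the more abundant partner in both genotypes, with a ratio of Ehmt1 to Ehmt2 per exonic length of 0.268 ± 0.0081 in SIRT1 KO mESCs and 0.230 ± 0.017 in WT mESCs (SD, n = 3 each).

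The genes of the SETDB1 arm, the enzyme, its stabiliser and the scaffold that recruits it, did not pass the test either. Setdb1 (chr3:95323525-95357202, minus strand) had 16.18, 16.21 and 16.19 in SIRT1 KO mESCs, against 16.22, 16.30 and 16.27 in WT mESCs. It was the tightest of the 10 genes within SIRT1 KO mESCs (SD 0.0141), and its libraries lay below those of WT mESCs without overlap, with a difference of -0.07 (SE 0.0463, adjusted p = 0.299 by limma). Setdb1 shares 75 exonic bases with Cers2, which was higher in SIRT1 KO mESCs (log2 fold change 0.29, adjusted p = 0.00415 by limma). Trim28 (chr7:12999114-13031035, plus strand) had 19.83, 19.84 and 19.87 in SIRT1 KO mESCs, against 19.83, 19.71 and 19.88 in WT mESCs. WT replicate 2 was the low one, the genotypes overlapped, and the log2 fold change was 0.04 (SE 0.0605, adjusted p = 0.643 by limma). Setdb1 minus Trim28 was -3.65 in SIRT1 KO mESCs and -3.54 in WT mESCs, without overlap (difference -0.11, exact permutation p = 0.10, adjusted over 5 pairs 0.167). Without WT replicate 2 the difference was -0.048.

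Atf7ip (chr6:136506167-136610862, plus strand), which keeps SETDB1 protein from degradation, was the least precise of the 10. It had 14.90, 14.78 and 14.70 in SIRT1 KO mESCs, against 14.75, 15.26 and 14.75 in WT mESCs. WT replicate 2 stood 0.34 above the mean of its genotype, and the log2 fold change of -0.13 had an interval of -0.42 to 0.17 (SE 0.130, adjusted p = 0.510 by limma). Without that library the fold change of Atf7ip was 0.04. Setdb1 minus Atf7ip was 1.40 in SIRT1 KO mESCs and 1.34 in WT mESCs, and these overlapped (exact permutation p = 0.90). Without WT replicate 2 the difference of this pair was -0.10, against 0.06 with it.

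ATRX and DAXX, which act together as the chaperone complex for H3.3, had lower means in SIRT1 KO mESCs that did not pass the test. Atrx (chrX:105797615-105929403, minus strand) had 16.38, 16.49 and 16.48 in SIRT1 KO mESCs, against 16.48, 16.60 and 16.54 in WT mESCs. The genotypes overlapped, with a difference of -0.09 (SE 0.0548, adjusted p = 0.257 by limma). Daxx (chr17:33909414-33915590, plus strand) had 15.65, 15.62 and 15.61 in SIRT1 KO mESCs, against 15.76, 15.66 and 15.82 in WT mESCs. Its highest SIRT1 KO library lay just below its lowest WT library, with a difference of -0.12 (SE 0.0552, adjusted p = 0.146 by limma). Atrx minus Daxx was 0.82 in SIRT1 KO mESCs and 0.79 in WT mESCs, with overlap (exact permutation p = 0.80, adjusted over 5 pairs 0.90). Hells (chr19:38930915-38971051, plus strand) had 16.97, 17.00 and 17.01 in SIRT1 KO mESCs, against 16.97, 16.86 and 16.98 in WT mESCs. It overlapped between the genotypes and did not pass the test (log2 fold change 0.06, SE 0.0514, adjusted p = 0.462 by limma).

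The size of change that these libraries leave room for differed among the 9 genes. Without Atf7ip, the 95% intervals of the other 8 lay between -0.24 and 0.24 on the log2 scale, so a change as large as that of Suv39h1 lay outside all of them. The values of SIRT1 KO and WT mESCs did not overlap for 5 of the 10 genes, against 44.7% of all tested genes. Of these Suv39h1, Suv39h2 and Ehmt1 were higher and Setdb1 and Daxx lower. The median log2 fold change of the 10 genes was -0.01, and that of all tested genes was also -0.01. Library scatter was larger in WT mESCs than in SIRT1 KO mESCs for 8 of the 10 genes, with an SD of 0.0141 to 0.101 in SIRT1 KO mESCs and 0.0382 to 0.297 in WT mESCs.

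**Figure D3:**
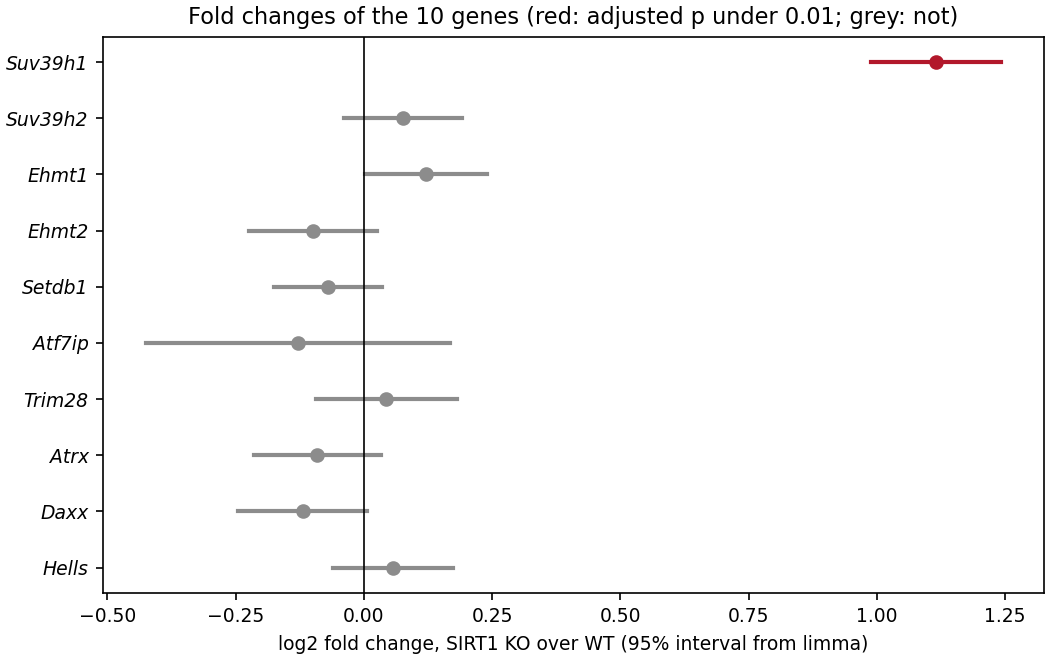
Log2 fold change (SIRT1 KO over WT) of each of the 10 genes, points with 95% intervals from limma. Suv39h1 (0.99 to 1.24) stands apart from the other 9, whose intervals lie between -0.42 and 0.24.

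Corrected for exonic length, the 10 genes spanned a wide range of levels. Trim28 was the highest at 227071 ± 3516 normalized units per kb in SIRT1 KO mESCs and 220604 ± 13321 in WT mESCs (SD, n = 3 each), at the 99.4 percentile of tested protein-coding genes in both. The next 3 were close together. Hells had 18094 ± 267 units per kb in SIRT1 KO mESCs and 17416 ± 780 in WT mESCs. Daxx had 16062 ± 234 units per kb in SIRT1 KO mESCs and 17463 ± 1013 in WT mESCs. Ehmt2 had 14719 ± 516 units per kb in SIRT1 KO mESCs and 15769 ± 764 in WT mESCs. In WT mESCs the libraries of Daxx overlapped those of Hells, and those of Hells overlapped those of Ehmt2, so their order there is not set. In SIRT1 KO mESCs the 3 did not overlap, with Hells above Daxx and Daxx above Ehmt2.

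Setdb1 followed with 10940 ± 107 units per kb in SIRT1 KO mESCs and 11489 ± 303 in WT mESCs, apart from its neighbours in the order. Atrx had 4113 ± 162 units per kb in SIRT1 KO mESCs and 4380 ± 190 in WT mESCs, and Ehmt1 had 3942 ± 160 in SIRT1 KO mESCs and 3624 ± 109 in WT mESCs. These 2 overlapped in SIRT1 KO mESCs and not in WT mESCs. Suv39h2 had 2902 ± 40.4 units per kb in SIRT1 KO mESCs and 2754 ± 84.6 in WT mESCs. Atf7ip had 1372 ± 96.5 units per kb in SIRT1 KO mESCs and 1519 ± 329 in WT mESCs. Suv39h1 had 3165 ± 130 units per kb in SIRT1 KO mESCs and 1460 ± 45.7 in WT mESCs, the 68.9 and 55.4 percentiles of tested protein-coding genes. It was thus level with Atf7ip at the bottom of the order in WT mESCs and stood above Atf7ip and Suv39h2, without overlap, in SIRT1 KO mESCs. Its small lead over Suv39h2 there depends on the lengths used and on bases shared with other genes. The exonic length counts the bases of every annotated isoform, which lowers the level of genes such as Atrx (21757 bases) and Atf7ip (20726 bases).

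**Figure D4:**
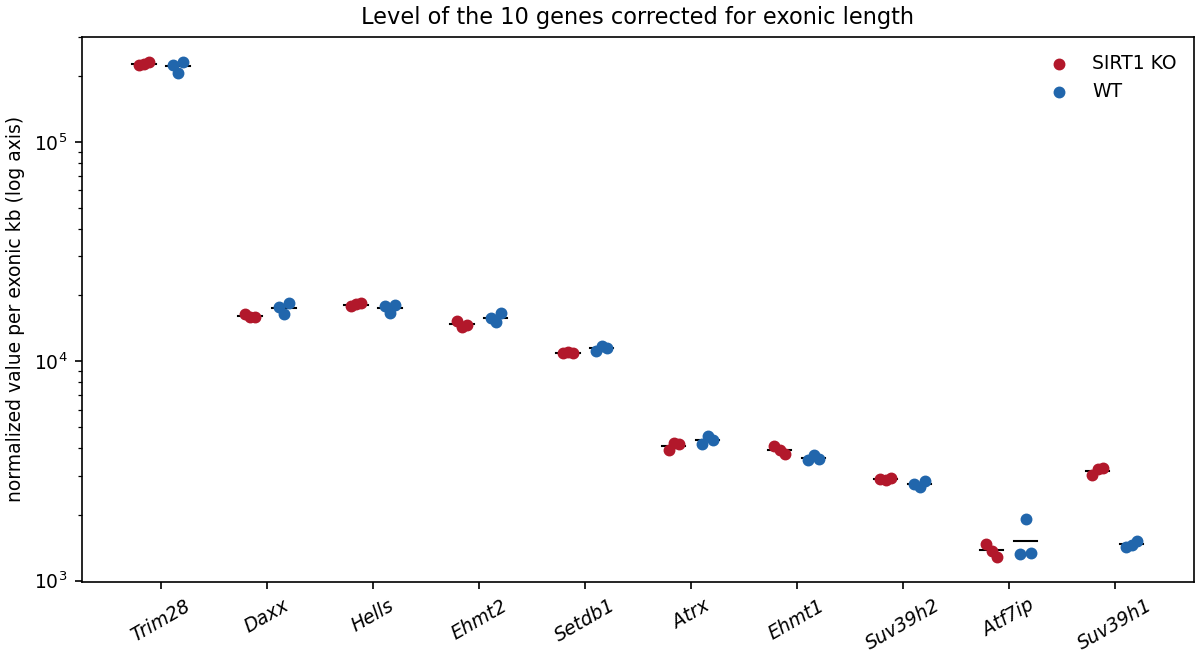
Normalized value per kb of exonic sequence (log axis) of the 10 genes in each library, SIRT1 KO left of WT for each gene, with lines at the means of 3 libraries. Trim28 lies highest in both genotypes, and Suv39h1 stands beside Atf7ip in WT mESCs and above Atf7ip and Suv39h2 in SIRT1 KO mESCs, at 3165 in SIRT1 KO mESCs and 1460 in WT mESCs.

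Other genes of the pathway were set in 4 lists by role, 53 genes in all, each of which passed the filter on low values. Of these 4 were higher in SIRT1 KO mESCs, 7 were lower and 42 did not pass the test (20.8% called, against 16.6% of all tested genes). The values did not overlap between the genotypes for 12 genes that were higher and 20 that were lower, 60.4% in all against 44.7% of all tested genes. The median log2 fold change of the 53 genes was -0.02. These counts depended on single libraries: without WT replicate 2 there were 8 higher and 12 lower, and without any other library 1 or 2 higher and 4 to 7 lower.

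Of 14 other writers and their cofactors, 3 were lower and none was higher, with a median log2 fold change of -0.09. Resf1, a partner of SETDB1 at retroviruses, had the clearest fall, with a fold change of -0.58 on the log2 scale (adjusted p = 0.000223 by limma, SE 0.064). Mecom, a member of the PRDM family, had -0.51 (SE 0.075, adjusted p = 0.00122). Zfp809, a KRAB zinc finger protein that brings TRIM28 to retroviral DNA, had -0.26 (SE 0.053, adjusted p = 0.0059), and lost its call when SIRT1 KO replicate 1, 2 or 3 or WT replicate 3 was left out (adjusted p up to 0.0276), with no filter (0.0114) and with median centring (0.0250). The genes that lie beside Resf1, Mecom and Zfp809 had medians of -0.10, -0.10 and 0.04. Of the 10 nearest to Mecom, 3 were lower and 1 was higher.

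Of 11 readers of the mark and members of the HUSH silencing complex, 1 was higher and none was lower, with a median of 0.05. The 3 HP1 genes, whose proteins bind the mark that SUV39H1 and SUV39H2 place, did not pass the test, with log2 fold changes of -0.12 for Cbx1, 0.05 for Cbx3 and 0.08 for Cbx5. Pphln1, a HUSH subunit, was the one called (0.29, SE 0.061, adjusted p = 0.00662 by limma), and with the replicate number as a block it was not (adjusted p = 0.0150). It also lost the call with no filter (0.0128), with quantile normalization (0.0123) and when any 1 library other than WT replicate 2 was left out (up to 0.0372).

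Of 17 chaperones and remodelling factors, 1 was higher and 2 were lower, with a median of -0.02. Cdca7l, a homologue of the HELLS activator CDCA7, had a fold change of -0.75 on the log2 scale (adjusted p = 0.000309 by limma, SE 0.088). Cdca7 itself had higher values than Cdca7l and was not called (log2 fold change 0.13, SE 0.062, adjusted p = 0.144 by limma). Kmt5c, the enzyme for the H4K20 trimethyl mark that follows H3K9 trimethylation at pericentromeric repeats, fell by 0.33 (SE 0.054, adjusted p = 0.00199). Asf1b, a histone H3 and H4 chaperone, was higher (0.31, SE 0.056, adjusted p = 0.00324), and so were 5 of its 10 nearest genes, with a median of 0.28. Its call was lost when any 1 SIRT1 KO library (adjusted p up to 0.0238) or WT replicate 1 was left out, and that of Kmt5c when SIRT1 KO replicate 2 or 3 or WT replicate 3 was (up to 0.0158).

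Of 11 demethylases that remove H3K9 methylation, 2 were higher and 2 were lower, with a median of -0.01. Kdm3a, which removes the mono- and dimethyl marks, had 15.39, 15.46 and 15.47 in SIRT1 KO mESCs, against 16.33, 16.36 and 16.35 in WT mESCs. It had the largest change of the 53 genes (log2 fold change -0.91, SE 0.047, adjusted p = 3.45e-06 by limma). Like Suv39h1 it stood among genes that moved with it: 9 of its 10 nearest genes on chromosome 6 were lower, with a median of -0.69. Kdm7a was lower (-0.72, SE 0.128, adjusted p = 0.00318), with WT replicate 2 the highest library at 12.23. Kdm4a and Kdm4b, which remove the trimethyl mark, were higher at 0.48 (SE 0.056, adjusted p = 0.000288) and 0.28 (SE 0.050, adjusted p = 0.00312). Of the 10 genes nearest to Kdm4a, 4 were higher and 0 lower, with a median of 0.10. For Kdm7a 0 were higher and 3 lower (median -0.12), and for Kdm4b 1 was higher and 0 lower (median 0.09). The call of Kdm7a was lost when any 1 SIRT1 KO library was left out (adjusted p up to 0.0191), and that of Kdm4b when any 1 library other than WT replicate 2 was (up to 0.0204).

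**Figure D5:**
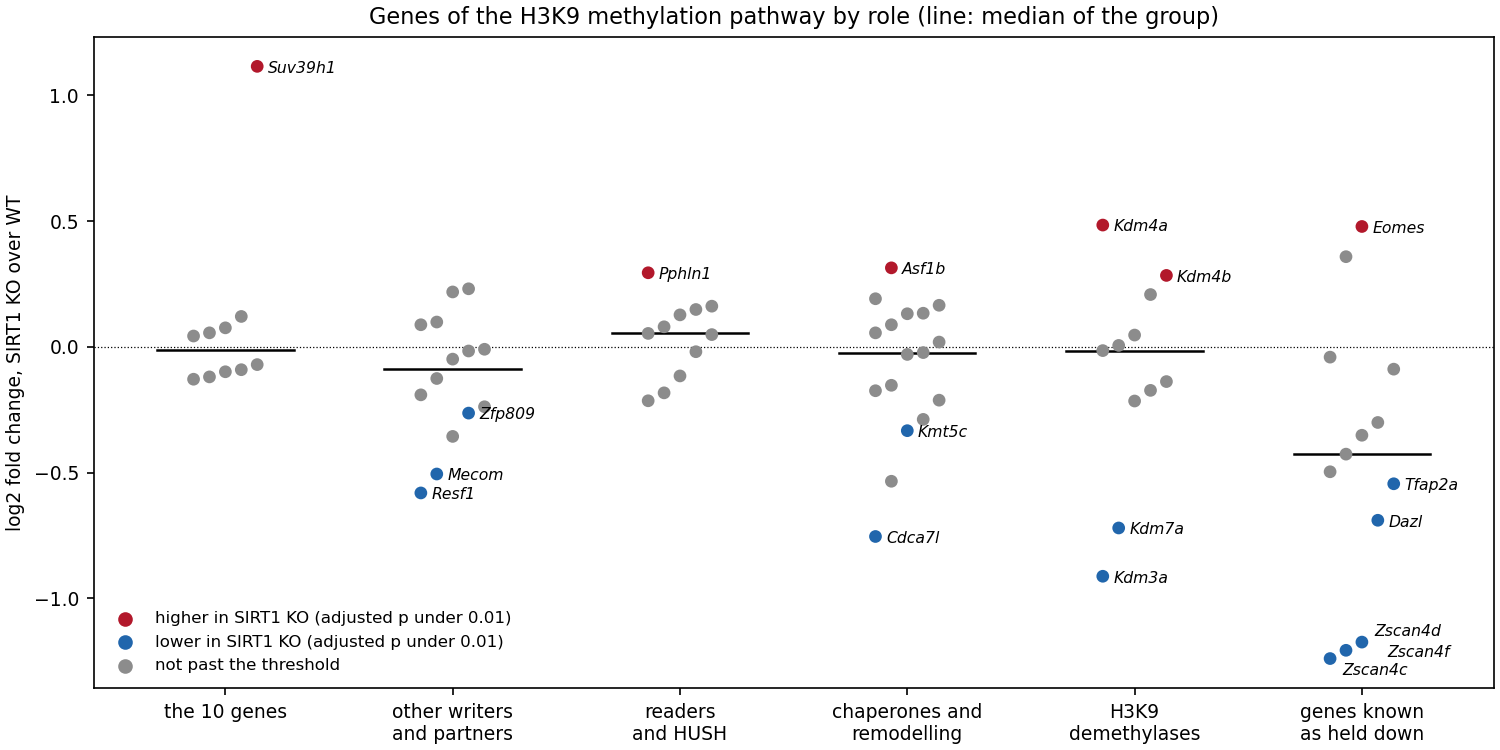
Log2 fold change (SIRT1 KO over WT) of the 10 genes, of 4 lists of pathway genes and of genes known as held down by H3K9 methylation; each point is a gene, red called higher, blue called lower and grey neither, and lines mark medians. Suv39h1 (1.12) and Kdm3a (-0.91) are the largest changes among writers, readers, chaperones and demethylases, and the Zscan4 genes lie lowest on the right.

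Of 13 genes known from other work to be held down by these enzymes in mESCs, 1 was higher and 5 were lower in SIRT1 KO mESCs (46.2% called, against 16.6% of all tested genes, with 8.47% higher and 8.12% lower), with a median log2 fold change of -0.43. Zscan4c, Zscan4f and Zscan4d, genes of the 2-cell embryo state that a small share of mESCs enters at a time, had log2 fold changes of -1.24 (SE 0.106, adjusted p = 5.13e-05 by limma), -1.21 (SE 0.107, adjusted p = 6.49e-05) and -1.17 (SE 0.138, adjusted p = 0.000319). They are near-identical copies that neighbour each other on chromosome 7, so reads can be split among them, and these 3 of the 5 lower genes are uncertain as separate results. Of the 10 nearest genes, which can include the other copies, 6 were lower for Zscan4c and 7 each for Zscan4d and Zscan4f. The medians of these neighbours were -1.19 for Zscan4c, -1.21 for Zscan4d and -1.21 for Zscan4f. Dazl, a germline gene, fell by 0.69 (SE 0.076, adjusted p = 0.000214). The other called genes were chosen for mention after their values were seen: Tfap2a was lower (-0.54, adjusted p = 0.00923 by limma), and Eomes was higher (0.48, SE 0.0602, adjusted p = 0.000465), as were 7 of its 10 nearest genes, with a median of 0.49. The call of Tfap2a was lost when any 1 library was left out, with a pseudocount of 10, median centring, quantile normalization and without the mean-variance trend (adjusted p up to 0.0395), and without WT replicate 2 the count of lower genes in the list was 8.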

How the data were processed

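RNA of 3 SIRT1 KO and 3 WT mESC libraries was analysed from 1 table of log2 values per gene. Per the labels and methods, the authors aligned reads to GRCm38 (mm10) with STAR and the Gencode annotation, counted them per gene with featureCounts, normalized the counts with DESeq2 and deposited log2 values. The log transformation used and the strand setting were not found in the sources used here. The values are not scaled by gene length and hold no read depth, so the counting error behind them is unknown, and count tests were not run. Values below 0 occur, and low values lie close together between libraries, which understates fold changes of weakly expressed genes.

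Genotypes were compared with limma 3.58.1 in R 4.3.3 (empirical Bayes with a mean-variance trend) over the 26571 genes whose linear values averaged 10 or more, with Benjamini-Hochberg adjustment over all of them and a threshold of 0.01. Differences between paired genes were tested by an exact two-sided permutation test. Positions, exonic lengths and overlaps came from GENCODE vM21 on GRCm38, where 53644 symbols (98.7%) matched 1 gene. Promoter windows came from RefSeq (GRCm38.p6), and all 10 genes matched. The limma fit was tested on simulated data.

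The 10 genes and all lists were chosen with earlier results of these data known. Named genes are the 10, Sirt1, up to 4 genes of each other list with the smallest adjusted p among those called, and genes a result turned on, such as neighbours. Libraries of equal replicate number deviated together (correlations 0.242, 0.149 and 0.316, at most 0.0838 for unequal numbers). The labels do not say what the numbers mark. The main fits and the permutation tests used no pairing, and the replicate block was run only as an alternative. Alternatives were no filter, a filter at 100, quantile normalization, median centring, a pseudocount of 10, no trend, robust estimation, the replicate block, a threshold of 0.05 and leaving out each library.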

Additional observations from a re-analysis of the deposited data

How the results depend on the processing

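The count of the 10 genes called, 1 higher and 0 lower, held under every alternative run, and so did the direction and call of Suv39h1 (log2 fold change 1.09 to 1.15 when leaving out single libraries). With the replicate number as a block Suv39h1 kept a fold change of 1.12 (adjusted p = 8.70e-06 by limma), and of the named genes the block changed only the call of Pphln1, printed above. The adjusted p of the other 9 genes from limma lay between 0.0105 (Daxx without WT replicate 2) and 0.933. Some of these were under 0.05, though none was in the main fit. With quantile normalization these were Ehmt2 (0.0173), Daxx (0.0236) and Setdb1 (0.0288), and with median centring Ehmt1 (0.0376). Without WT replicate 2 they were Daxx, Ehmt1 (0.0361) and Ehmt2 (0.0432). Quantile normalization reversed Trim28 (-0.034) and Hells (-0.034). When leaving out single libraries Trim28 ran from -0.0051 (without WT replicate 2) to 0.081, Atf7ip from -0.22 to 0.043 (without WT replicate 2), Atrx minus Daxx from -0.011 (without WT replicate 3) to 0.11 and Setdb1 minus Atf7ip from -0.096 (without WT replicate 2) to 0.14. The 53 pathway genes had 7 called higher with median centring, 9 higher and 11 lower at a threshold of 0.05, and 1 to 8 higher and 4 to 12 lower when leaving out single libraries, highest without WT replicate 2. Of the genes known as held down, 2 were called higher with no filter, a filter at 100, median centring, quantile normalization, no trend, robust estimation or a threshold of 0.05, against 1, and 9 were lower at a threshold of 0.05 and 4 to 8 when leaving out single libraries. The median of the 10 neighbours of Suv39h1 was 0.32 with median centring and 0.21 to 0.31 when leaving out single libraries, alternatives chosen after seeing the data. The cause of these shifts was not tested. Median centring moved all fold changes by 0.06. The table holds no read depth, and 3 libraries per genotype limit the precision.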
